A study of Homo sapiens with 6 samples.

Results

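The nuclear genes of oxidative phosphorylation were followed by RNA-seq in HCT116 cells, an established human colorectal carcinoma line, with and without added miR-8485. Members were the protein-coding genes outside mitochondrial DNA whose symbols name subunits or namesake factors of respiratory complexes I to IV and of ATP synthase, complex V. The symbols were those that begin with NDUFA, NDUFB, NDUFC, NDUFS, NDUFV, UQCR, COX4 to COX8 or ATP5, together with SDHA, SDHB, SDHC, SDHD and CYC1. This gave 100 of the 58735 genes listed. CTR was the line labelled WT and transfected as control and had 3 libraries. The miR-8485 group was the same line given miR-8485 mimics at 50 nM, double-stranded RNA that adds an excess of the microRNA, and also had 3 libraries. All 6 libraries were from cells collected 48 h after transfection and were made from independent biological replicates. The data therefore describe 1 cell line at 1 dose and 1 time, with the microRNA added from outside.

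Oxidative phosphorylation takes electrons from NADH through complex I and from succinate through complex II to ubiquinone, then through complex III, cytochrome c and complex IV to oxygen. The protons pumped on the way drive the rotor of ATP synthase, which makes most of the ATP of a respiring cell. Mitochondrial DNA encodes a few of the subunits, and the nucleus encodes the others, all of complex II and every assembly factor. Core subunits carry the redox centres and the catalytic sites, whereas accessory subunits stabilise the complexes and assembly factors leave the finished enzyme. The strand of the mimic that carries the microRNA sequence is shown because its seed, bases 2 to 8 from the 5′ end and in capitals here, defines the letters searched for in the transcripts.
miR-8485 mimic, sense strand: cACACACAcacacguau

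Levels are given in FPKM, a fragment count per gene, scaled to the length of the gene and the library total, so that genes of different length can be compared. Each library held between 17473874 and 18480047 fragments on listed genes. The differences were tested with limma on log2(FPKM + 0.1) for the 12349 genes whose mean level was at least 1 FPKM, with Benjamini-Hochberg adjustment over all of these genes. Log2 fold changes are miR-8485 minus CTR on that scale, and a gene was called upregulated or downregulated at an adjusted p under 0.05. Of the 100 members, 87 passed the filter on low levels, and the 13 below it are described by level only. In bulk RNA a change in RNA per cell and a change in the mix of cells cannot be told apart. Of 6 epithelial marker genes, EPCAM, CDH1, KRT8, KRT18 and CDX2 were expressed and VIL1 was at 0 to 0.0639 FPKM, and their summed level was 1519 to 1646 FPKM in CTR and 1004 to 1036 FPKM in miR-8485. KRT8 and KRT18 fell (log2 fold change -0.62, adjusted p = 2.56e-05; log2 fold change -0.97, adjusted p = 9.60e-06) and CDX2 rose (log2 fold change 0.81, adjusted p = 1.43e-05). Of 5 markers of other cell types, DCN was at 0 in all libraries, PTPRC was at 0 in all but 1, and PECAM1 and ALB stayed under 0.5 FPKM. The last, COL1A1, rose from 4.38, 4.30 and 4.05 FPKM in CTR to 6.27, 6.40 and 6.27 FPKM in miR-8485 (log2 fold change 0.56, adjusted p = 1.33e-04), and the summed level of the list was 4.19 to 4.44 FPKM in CTR and 6.65 to 6.74 FPKM in miR-8485. The part of these shifts in the results was not tested.

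Nuclear OXPHOS genes were mostly higher in miR-8485, by small amounts, with 72 of 87 tested members above 0 in log2 fold change. Of the 87 members tested, 50 rose, 4 fell and 33 did not pass the test, that is 57.5% up and 4.60% down. Among all 12349 tested genes, 29.1% rose and 30.5% fell. All miR-8485 libraries lay above all CTR libraries for 51 members, 58.6% of those tested, against 32.5% of all tested genes. They lay below for 5 members, against 34.0% of all tested genes. The median log2 fold change of the members was 0.26, beside -0.0041 over all tested genes. A median of 0.26 is a rise of 1.19-fold, and no tested member reached a 2-fold change in either direction. The highest was ATP5IF1, at 1.56-fold.

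**Figure D1:**
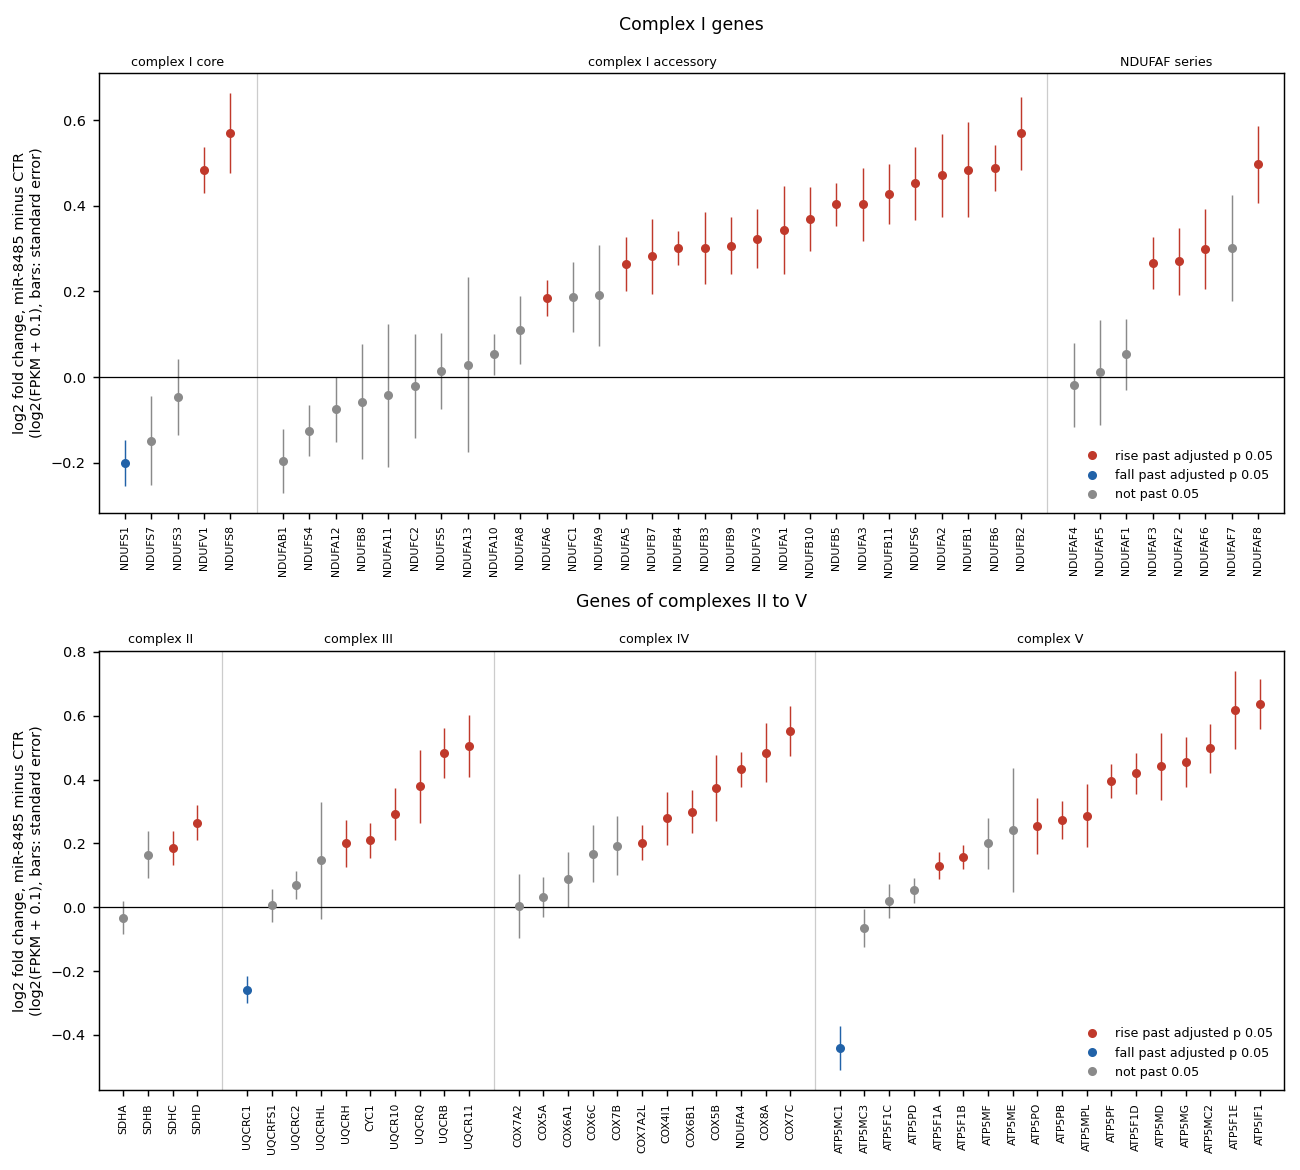
Log2 fold change of 86 tested members (vertical axis, miR-8485 minus CTR, log2(FPKM + 0.1)), with the standard error as bars, sorted within each complex. Red points rose and blue points fell at an adjusted p under 0.05 by limma, with 3 libraries a group, and the blue points are NDUFS1, UQCRC1 and ATP5MC1.

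The summed level of the 100 members was 4587, 4055 and 4140 FPKM in CTR and 5149, 4891 and 4796 FPKM in miR-8485. These sums did not overlap between the groups, and the means of 4261 ± 286 and 4945 ± 183 FPKM (SD, n = 3) differ by 1.16-fold. CTR replicate 1 stood apart from the other CTR libraries. Taken against each gene's CTR mean, its members had a median log2 deviation of 0.12, where CTR replicates 2 and 3 had -0.078 and -0.038 and the miR-8485 libraries had 0.27, 0.25 and 0.20. This library also had the smallest share of fragments on mitochondrial DNA, 7.94%, beside 10.2% and 9.50% in the other CTR libraries and 11.3%, 11.1% and 10.6% in miR-8485. Without CTR replicate 1, 57 members rose and 4 fell, and the median log2 fold change was 0.30. Without any other single library, 38 to 47 members rose and 4 or 5 fell.

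**Figure D2:**
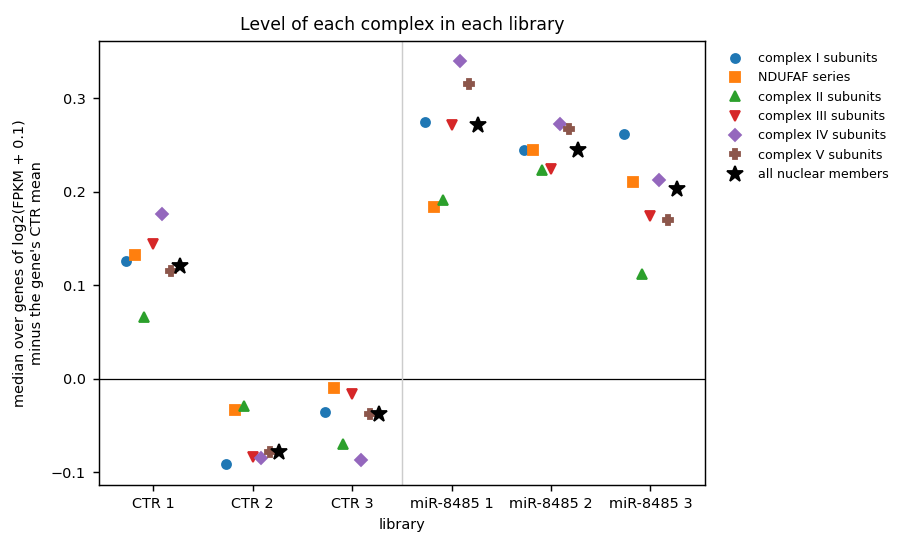
Median over the genes of each complex of log2(FPKM + 0.1) minus the gene's CTR mean (vertical axis) in each of the 6 libraries (horizontal axis), with a black star for all 87 tested members. CTR 1 sits at 0.12, above CTR 2 and CTR 3 and below the 3 miR-8485 libraries, which lie from 0.20 to 0.27.

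The count depended on scaling and on gene length. FPKM divide by the library total only. Rescaling to TPM, in which all levels of a library sum to the same total, lowered the median of all tested genes to -0.12. It left 28 of the 87 tested members up and 6 down, beside 21.2% of all tested genes up. The share of called members that rose was then 82.4% in place of 92.6%, and that of all called genes 35.6% in place of 48.8%. The median of the members minus that of all tested genes was 0.26 on either scale, because a common factor per library shifts all genes nearly alike. With the trend of fold change against gene length removed, 37 of the 87 tested members rose and 8 fell, beside 29.3% of all tested genes up. Of the called members 82.2% then rose, beside 49.4% of all called genes. The median of the members was then 0.14.

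Complex I has the most subunits of the chain, and 37 of the members encode them. Of the 35 tested, 19 rose (54.3%), 2 fell (5.71%) and 14 did not pass the test, with a median log2 fold change of 0.26. Among all tested genes 29.1% rose and 30.5% fell. The direction differed among core subunits: NDUFS8 and NDUFV1 rose, NDUFS1 fell, and NDUFS3 and NDUFS7 did not pass. Of the 29 accessory subunits tested, 17 rose (58.6%) and none fell at an adjusted p under 0.05 by limma. Whether core and accessory subunits differ in direction was not tested.

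NDUFS1, the largest core subunit and a carrier of iron-sulphur clusters, measured 8.87, 9.31 and 8.95 FPKM in CTR and 7.67, 8.23 and 7.65 FPKM in miR-8485. All miR-8485 libraries were below CTR (log2 fold change -0.20 ± 0.053 (SE), adjusted p = 0.0132). The call for NDUFS1 was lost when the trend of fold change against the GC content of genes was removed (adjusted p = 0.0836) and with the length trend removed (adjusted p = 0.328). NDUFS8, an iron-sulphur subunit between the flavin and ubiquinone ends of the enzyme, measured 19.999, 16.6 and 18.4 FPKM in CTR and 30.7, 25.7 and 25.6 FPKM in miR-8485 (log2 fold change 0.57 ± 0.093 (SE), adjusted p = 0.00137). NDUFV1, which binds NADH and the flavin that takes its electrons, measured 28.9, 27.8 and 27.6 FPKM in CTR and 42.2, 37.8 and 38.2 FPKM in miR-8485 (log2 fold change 0.48 ± 0.054 (SE), adjusted p = 2.24e-04). For both, all miR-8485 libraries were the higher ones.

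NDUFV2, the iron-sulphur partner of NDUFV1 in the NADH-binding module, was below the filter. Its row held 35, 24 and 19 fragments in CTR and 10, 5 and 4 in miR-8485, so that all miR-8485 libraries were below all CTR libraries at a very low count. Its pseudogene row held 275 fragments over the 6 libraries beside 97 on NDUFV2 itself, 73.9% of both. The gene is also overlapped by 3 other rows, of which NDUFV2-AS1 and AP005899.1 lie on the opposite strand. The way fragments were divided among these copies cannot be read from the FPKM values, so its level and its direction are uncertain. The accessory subunit NDUFA7 was low in the same way, with 18, 14 and 7 fragments in CTR and 15, 13 and 12 in miR-8485, and its row overlaps that of RPS28, a ribosomal protein gene with 2081 to 4200 fragments a library. The other accessory subunits with low levels, NDUFA13 (log2 fold change 0.029, adjusted p = 0.912) and NDUFA9 (log2 fold change 0.19, adjusted p = 0.2), are each overlapped by 2 protein-coding rows.

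Among accessory subunits, the largest rises were in the membrane arm. NDUFB2 measured 11.1, 9.26 and 9.34 FPKM in CTR and 15.7, 14.8 and 13.7 FPKM in miR-8485 (log2 fold change 0.57 ± 0.085 (SE), adjusted p = 9.08e-04). NDUFB6 measured 28.1, 29.1 and 27.9 FPKM in CTR and 42.4, 39.8 and 37.6 FPKM in miR-8485 (log2 fold change 0.49 ± 0.054 (SE), adjusted p = 2.00e-04). NDUFB1 measured 6.18, 5.06 and 5.40 FPKM in CTR and 8.05, 6.72 and 8.68 FPKM in miR-8485 (log2 fold change 0.48 ± 0.11 (SE), adjusted p = 0.00693). All 3 genes had every miR-8485 library above every CTR library, as the choice of the largest rises required. Of the NDUFB series, 10 of 11 tested genes rose, beside 29.1% of all tested genes. NDUFB8 alone did not pass (log2 fold change -0.058, adjusted p = 0.734). The NDUFA series was mixed: NDUFA1, NDUFA2, NDUFA3, NDUFA5 and NDUFA6 rose, and NDUFA8, NDUFA9, NDUFA10, NDUFA11, NDUFA12 and NDUFA13 did not pass. The most abundant complex I transcript, NDUFS5, measured 351, 281 and 311 FPKM in CTR and 344, 306 and 301 FPKM in miR-8485 and did not pass the test (log2 fold change 0.014 ± 0.088 (SE), adjusted p = 0.902). NDUFAB1, the mitochondrial acyl carrier protein, also serves fatty acid and lipoate synthesis in the matrix. It measured 83.4, 69.5 and 70.4 FPKM in CTR and 65.8, 62.0 and 66.5 FPKM in miR-8485, with all miR-8485 libraries below CTR, and missed the threshold (log2 fold change -0.20 ± 0.075 (SE), adjusted p = 0.0548). It passed without CTR replicate 2 (adjusted p = 0.0407), with voom, limma's method for counts, on the fragments recovered from the FPKM values (adjusted p = 0.0177) and with the length trend removed (-0.38, adjusted p = 0.000905).

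The NDUFAF series encodes factors that assemble complex I and are absent from the finished enzyme. Of its 8 genes, 4 rose and none fell at an adjusted p under 0.05 by limma, with a median log2 fold change of 0.27. The shares over all tested genes were 29.1% up and 30.5% down. Whether this small series differs from all tested genes was not tested. NDUFAF8 measured 34.2, 29.2 and 29.8 FPKM in CTR and 49.2, 41.5 and 41.0 FPKM in miR-8485 (log2 fold change 0.50 ± 0.089 (SE), adjusted p = 0.00222). NDUFAF2 measured 18.6, 19.0 and 19.4 FPKM in CTR and 21.0, 25.9 and 22.2 FPKM in miR-8485 (log2 fold change 0.27 ± 0.078 (SE), adjusted p = 0.019). NDUFAF6, at a low level, measured 2.16, 1.90 and 1.92 FPKM in CTR and 2.38, 2.47 and 2.57 FPKM in miR-8485 (log2 fold change 0.30 ± 0.094 (SE), adjusted p = 0.0272). The groups did not overlap for any of these 3 genes, as the choice of the largest rises required. The call for NDUFAF6 was lost without CTR replicate 2 or 3 or miR-8485 replicate 2 or 3 (adjusted p of 0.0685 to 0.0877). After rescaling to TPM, 2 genes of the series rose, NDUFAF8 and NDUFAF3, and the calls for NDUFAF2 and NDUFAF6 were lost. With the length trend removed, the log2 fold change of NDUFAF2 was 0.036 (adjusted p = 0.755).

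Complex II oxidises succinate and is also an enzyme of the TCA cycle. Its membrane anchors rose, and its catalytic subunits did not pass the test. SDHD measured 41.8, 41.7 and 38.0 FPKM in CTR and 46.5, 49.3 and 50.1 FPKM in miR-8485 (log2 fold change 0.26 ± 0.055 (SE), adjusted p = 0.00427). SDHC measured 7.63, 7.04 and 7.28 FPKM in CTR and 8.35, 8.41 and 8.24 FPKM in miR-8485 (log2 fold change 0.19 ± 0.052 (SE), adjusted p = 0.0168). In both anchors all miR-8485 libraries were above CTR. SDHB, the iron-sulphur subunit, measured 44.3, 38.9 and 38.4 FPKM in CTR and 46.2, 48.01 and 42.0 FPKM in miR-8485 (log2 fold change 0.17 ± 0.073 (SE), adjusted p = 0.0875), and its groups overlapped. SDHA, the flavoprotein that binds succinate, measured 20.8, 19.7 and 18.9 FPKM in CTR and 19.5, 19.7 and 18.8 FPKM in miR-8485 (log2 fold change -0.032 ± 0.051 (SE), adjusted p = 0.608), with its sign turned by removal of the length trend (0.067) and by leaving out CTR replicate 1 (0.0027). The pseudogene rows of SDHA held 8.46% of the fragments of gene and pseudogenes. SDHC lost its call without CTR replicate 2 or miR-8485 replicate 2 (adjusted p of 0.0527 to 0.0599), which left 1 gene of the complex up, and SDHB passed without CTR replicate 1 or miR-8485 replicate 3 (adjusted p of 0.0184 to 0.0465). After rescaling to TPM, 0 genes of complex II rose by limma, with an adjusted p = 0.1 for SDHD and an adjusted p = 0.376 for SDHC.

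Complex III passes electrons from ubiquinol to cytochrome c. Of its 9 genes, 6 rose (66.7%) and 1 fell (11.1%), beside 29.1% and 30.5% of all tested genes. Their median log2 fold change was 0.21. UQCR11 measured 15.7, 12.7 and 14.4 FPKM in CTR and 22.6, 19.8 and 18.6 FPKM in miR-8485 (log2 fold change 0.50 ± 0.10 (SE), adjusted p = 0.00313). UQCRB, which lies near the quinone-reducing site, measured 23.1, 18.7 and 19.7 FPKM in CTR and 29.3, 28.1 and 28.4 FPKM in miR-8485 (log2 fold change 0.48 ± 0.079 (SE), adjusted p = 0.00138). UQCRQ measured 77.2, 56.4 and 60.3 FPKM in CTR and 89.0, 83.3 and 78.0 FPKM in miR-8485 (log2 fold change 0.38 ± 0.11 (SE), adjusted p = 0.0227). The groups were apart in all 3 of these small subunits, as the choice of the largest rises required. Differences in the redox subunits were smaller. CYC1, the cytochrome c1 that hands electrons to cytochrome c, measured 159.5, 176 and 177 FPKM in CTR and 206, 194 and 193 FPKM in miR-8485 (log2 fold change 0.21 ± 0.055 (SE), adjusted p = 0.0128), and all miR-8485 libraries were the higher ones. UQCRFS1, the Rieske iron-sulphur protein, measured 50.1, 44.5 and 46.9 FPKM in CTR and 48.1, 47.2 and 46.6 FPKM in miR-8485, with overlapping groups (log2 fold change 0.006 ± 0.052 (SE), adjusted p = 0.929). It was slightly below 0 after rescaling to TPM (-0.11), with the length trend removed (-0.018) and without CTR replicate 2 or miR-8485 replicate 1 (-0.036 and -0.006).

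The member of complex III that fell was UQCRC1, a core protein of the matrix side that carries no redox centre. It measured 102, 96.1 and 97.3 FPKM in CTR and 84.3, 82.1 and 80.4 FPKM in miR-8485 (log2 fold change -0.26 ± 0.042 (SE), adjusted p = 0.00142), and the groups were apart. Its partner UQCRC2 measured 38.2, 38.8 and 39.2 FPKM in CTR and 39.99, 39.5 and 42.5 FPKM in miR-8485 and did not pass (log2 fold change 0.069 ± 0.044 (SE), adjusted p = 0.213). The count of rises in complex III was 3 without miR-8485 replicate 1, 2 after rescaling to TPM and 2 with the length trend removed, UQCR11 and UQCRB in both cases. UQCRQ lost its call without CTR replicate 2 or 3 or miR-8485 replicate 1 or 2 (adjusted p of 0.0572 to 0.0758). CYC1 lost its call after rescaling to TPM and with the length or GC trend removed (adjusted p = 0.128, 0.353 and 0.102).

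Complex IV, cytochrome c oxidase, reduces oxygen to water. Mitochondrial DNA encodes its catalytic core, and all 11 nuclear subunit genes, with NDUFA4 counted here by its place in the enzyme, were tested. Of these, 6 rose (54.5%) and none fell at an adjusted p under 0.05 by limma, beside 29.1% and 30.5% of all tested genes. Their median log2 fold change was 0.28. COX7C measured 102, 87.6 and 85.4 FPKM in CTR and 140.3, 137 and 125 FPKM in miR-8485 (log2 fold change 0.55 ± 0.078 (SE), adjusted p = 6.88e-04). COX8A measured 178, 152 and 187 FPKM in CTR and 266, 225 and 231 FPKM in miR-8485 (log2 fold change 0.48 ± 0.093 (SE), adjusted p = 0.00299). NDUFA4, once assigned to complex I, measured 33.0, 29.0 and 31.4 FPKM in CTR and 42.6, 41.7 and 41.6 FPKM in miR-8485 (log2 fold change 0.43 ± 0.055 (SE), adjusted p = 3.94e-04). For these genes the lowest miR-8485 library was above the highest CTR library. The same held for COX5B, at 66.2 ± 10.4 FPKM in CTR and 85.1 ± 3.07 FPKM in miR-8485 (SD, n = 3; log2 fold change 0.37, adjusted p = 0.0152), COX6B1, at 114 ± 8.12 FPKM in CTR and 141 ± 8.95 FPKM in miR-8485 (log2 fold change 0.30, adjusted p = 0.00636), and COX4I1, the subunit at which ATP regulates the enzyme, at 88.2 ± 10.5 FPKM in CTR and 107 ± 4.36 FPKM in miR-8485 (log2 fold change 0.28, adjusted p = 0.0213).

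Of complex IV, 5 subunits did not pass the test, and their groups overlapped. COX7B (log2 fold change 0.19, adjusted p = 0.11) and COX6C (log2 fold change 0.17, adjusted p = 0.144) passed when CTR replicate 1 was left out (adjusted p = 0.00322 and 0.0141). COX6A1 (log2 fold change 0.087, adjusted p = 0.414), COX5A (log2 fold change 0.033, adjusted p = 0.678) and COX7A2 (log2 fold change 0.0044, adjusted p = 0.974) were near 0 and turned negative after rescaling to TPM (-0.028, -0.083 and -0.11) and with the length trend removed (-0.12, -0.17 and -0.14), where COX5A passed as a fall (adjusted p = 0.0148). Leaving out CTR replicate 2 also turned COX5A (-0.024) and COX7A2 (-0.067), and leaving out CTR replicate 3 or miR-8485 replicate 1 turned COX7A2 (-0.039 and -0.048). After rescaling to TPM, COX7C, COX8A and NDUFA4 were the 3 genes of the complex that rose. With the length trend removed, the calls for COX6B1 (0.062, adjusted p = 0.274) and COX5B (0.17, adjusted p = 0.0981) were lost. The call for COX4I1 was lost without CTR replicate 2 or 3 or miR-8485 replicate 1 or 2 (adjusted p of 0.0542 to 0.0716), and that for COX5B without CTR replicate 3 or miR-8485 replicate 1 (adjusted p of 0.0508 to 0.0524). COX7A2L, which joins complexes III and IV into supercomplexes, measured 16.6, 15.3 and 15.0 FPKM in CTR and 18.3, 18.3 and 17.3 FPKM in miR-8485 and rose (log2 fold change 0.20 ± 0.055 (SE), adjusted p = 0.0144), a call lost without CTR replicate 3 or miR-8485 replicate 2 (adjusted p of 0.0509 to 0.051) and after rescaling to TPM (adjusted p = 0.284).

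Complex V, ATP synthase, couples a membrane rotor to a catalytic head. Of its 17 subunit genes, 11 rose (64.7%) and 1 fell (5.88%), beside 29.1% and 30.5% of all tested genes. Their median log2 fold change was 0.26. In the head, ATP5F1B, the catalytic beta subunit and the most abundant member of all, measured 531, 524 and 519 FPKM in CTR and 590.4, 584 and 580.3 FPKM in miR-8485 (log2 fold change 0.16 ± 0.037 (SE), adjusted p = 0.00855). This rise turned to -0.036 under quantile normalization. The alpha subunit ATP5F1A measured 72.7, 68.2 and 69.0 FPKM in CTR and 76.2, 76.1 and 77.4 FPKM in miR-8485 (log2 fold change 0.13 ± 0.041 (SE), adjusted p = 0.0266), and its call was lost when any single library other than CTR replicate 1 was left out (adjusted p of 0.0586 to 0.0903). Both calls were lost after rescaling to TPM (adjusted p = 0.506 and 0.837), and 6 genes of the complex rose then. The ATP5F1B call was also lost with the length trend removed (adjusted p = 0.2).

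Other subunits of the enzyme had larger fold changes. ATP5F1E, the epsilon subunit of the central stalk, measured 20.1, 15.0 and 15.4 FPKM in CTR and 27.4, 26.9 and 22.8 FPKM in miR-8485 (log2 fold change 0.62 ± 0.12 (SE), adjusted p = 0.00357). ATP5MG, a subunit of the membrane part, measured 8.79, 7.81 and 8.19 FPKM in CTR and 12.4, 11.4 and 10.3 FPKM in miR-8485 (log2 fold change 0.45 ± 0.079 (SE), adjusted p = 0.00188). ATP5IF1, a separate protein that stops ATP synthase from running backwards and breaking down ATP, measured 22.6, 19.4 and 20.2 FPKM in CTR and 34.9, 29.8 and 32.0 FPKM in miR-8485 (log2 fold change 0.64 ± 0.078 (SE), adjusted p = 3.45e-04). In all 3 genes every miR-8485 library was above every CTR library, as the choice of the largest rises required. ATP5IF1 had the largest log2 fold change among the tested members.

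The c-subunit of the rotor ring is encoded by a trio of nuclear genes, ATP5MC1, ATP5MC2 and ATP5MC3, whose products differ in the targeting peptide and give the same mature protein. The first of them fell, the second rose and the third did not pass the test. ATP5MC1, at chr17:48892765-48895871 (hg38), measured 49.97, 42.6 and 45.9 FPKM in CTR and 35.8, 32.1 and 34.0 FPKM in miR-8485 and fell (log2 fold change -0.44 ± 0.07 (SE), adjusted p = 0.00118). ATP5MC2, at chr12:53632726-53677408, measured 23.5, 19.5 and 20.8 FPKM in CTR and 31.8, 28.7 and 29.4 FPKM in miR-8485 and rose (log2 fold change 0.50 ± 0.077 (SE), adjusted p = 0.00104). ATP5MC3, at chr2:175176258-175184607, measured 40.3, 35.2 and 36.3 FPKM in CTR and 36.6, 35.5 and 34.6 FPKM in miR-8485 and did not pass (log2 fold change -0.065 ± 0.059 (SE), adjusted p = 0.376), with its sign turned by removal of the GC trend (0.073) and of the length trend (0.003). The groups were apart for ATP5MC1 and ATP5MC2 and overlapped for ATP5MC3.

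**Figure D3:**
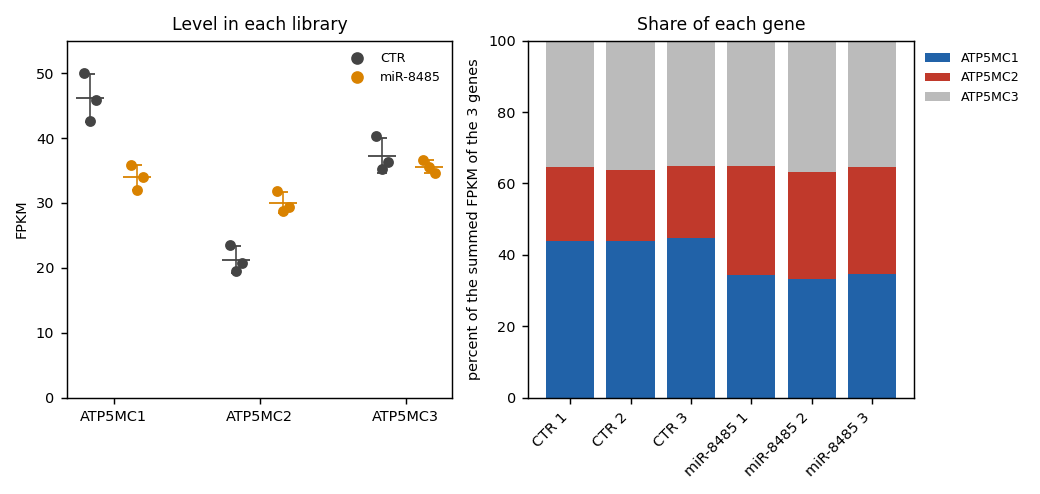
Left, FPKM of the c-subunit genes in each library, with the mean and SD of each group of 3; right, the share of each gene in their summed FPKM in each library. ATP5MC1 makes up 43.8% to 44.6% in CTR and 33.3% to 34.6% in miR-8485, while ATP5MC2 goes from at most 20.7% to at least 29.9%.

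Their summed level was 113.8, 97.3 and 103.0 FPKM in CTR and 104.3, 96.3 and 98.0 FPKM in miR-8485, with the groups overlapping. Within the sum, ATP5MC1 took 43.9%, 43.8% and 44.6% in CTR and 34.3%, 33.3% and 34.6% in miR-8485. ATP5MC2 took 20.7%, 20.03% and 20.2% in CTR and 30.5%, 29.9% and 30.03% in miR-8485. ATP5MC3 kept between 35.1% and 36.9% in all 6 libraries. The shift of share between ATP5MC1 and ATP5MC2 was thus larger than the spread between libraries, and a share is a ratio within each library that scaling by a common factor leaves as it is. The promoters of these genes, 250 bases before to 50 after the annotated start, are shown for the 2 that moved apart. They are the RefSeq sequences of GRCh38.p14, written 5′ to 3′ on the strand of the gene, the ATP5MC2 start lies inside the span that the table gives this gene, and the capitals mark a match to GCGCATGC, a form of the NRF1 site, on either strand.
ATP5MC1, chr17:48892537-48892836, plus strand: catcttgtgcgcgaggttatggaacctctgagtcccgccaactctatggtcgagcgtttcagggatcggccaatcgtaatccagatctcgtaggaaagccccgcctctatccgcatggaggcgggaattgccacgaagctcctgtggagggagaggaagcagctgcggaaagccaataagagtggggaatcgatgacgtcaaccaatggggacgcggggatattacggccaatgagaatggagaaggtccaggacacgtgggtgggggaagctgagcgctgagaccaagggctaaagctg
ATP5MC2, chr12:53676034-53676333, minus strand: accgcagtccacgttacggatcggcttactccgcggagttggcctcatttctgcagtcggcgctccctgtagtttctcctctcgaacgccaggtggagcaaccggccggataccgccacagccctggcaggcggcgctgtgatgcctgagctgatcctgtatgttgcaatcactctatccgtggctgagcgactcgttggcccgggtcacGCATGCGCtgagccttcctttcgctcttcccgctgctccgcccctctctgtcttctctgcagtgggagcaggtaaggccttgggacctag

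No other match to the 3 motifs searched was in this pair of promoters. NRF1, GABP and YY1 are factors known to bind promoters of respiratory chain genes. Promoters were found for 76 of the 100 members. GCGCATGC was in 15 of them, 19.7%, beside 5.85% of 8567 tested protein-coding genes and 3.05% of all 35116 promoters. The GABP/ETS motif CCGGAAGT was in 9, 11.8%, beside 9.75% and 4.14%, and the YY1 motif AAGATGGC was in 11, 14.5%, beside 5.88% and 2.89%. Among the 39 upregulated members with a promoter, 7, 6 and 5 held the NRF1, GABP/ETS and YY1 motif, a share of 17.9%, 15.4% and 12.8%. Both strands were searched, matches to different motifs overlapped in 1 member promoter, and a match is a description of the sequence only.

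The 14 remaining members were paralogues of limited tissue range, associated factors and readthrough rows, and 11 of them were below the filter. COX6B2, the testis form of COX6B1, held 64, 58 and 63 fragments in CTR and 45, 49 and 35 in miR-8485, with all miR-8485 libraries below CTR. COX7A1, the heart and muscle form of COX7A2, held 0, 1 and 0 fragments in CTR and 9, 1 and 9 in miR-8485, and COX8C, a testis form of COX8A, held 0, 0 and 2 fragments in CTR and 4, 6 and 5 in miR-8485. In both, all miR-8485 libraries were at or above the highest CTR library, at counts below the filter. NDUFA4L2, a paralogue of NDUFA4 known from the hypoxia response, held 20, 12 and 10 fragments in CTR and 24, 20 and 18 in miR-8485. COX4I2, the lung form of COX4I1, held 4, 6 and 0 fragments in CTR and 0, 0 and 0 in miR-8485, COX7B2 held 2 fragments in 1 CTR library and 0 elsewhere, and COX6A2, the muscle form of COX6A1, was at 0 in all libraries. ATP5S held 111, 103 and 140 fragments in CTR and 136, 151 and 133 in miR-8485. ATP5MGL held 2, 4 and 0 fragments in CTR and 0, 1 and 2 in miR-8485, the readthrough row ATP5MF-PTCD1 held 1 fragment in 2 miR-8485 libraries, and NDUFC2-KCTD14 held 1 in 1 CTR library. The common isoforms were thus the ones expressed, and UQCRHL, a near copy of UQCRH, was the other tested row of this kind (log2 fold change 0.15, adjusted p = 0.512).

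The genes that act with the subunits moved in both directions. Assembly factors outside the rule numbered 47, of which 44 were tested, with a median log2 fold change of 0.27. Of those tested, 24 rose (54.5%) and 7 fell (15.9%), beside 29.1% and 30.5% of all tested genes. For complex I, 6 of 11 rose (54.5%) and 1 fell (9.09%). DMAC1, a factor for its distal membrane arm, had the largest rise (4.36, 5.09 and 4.53 FPKM in CTR and 10.5, 10.7 and 8.63 FPKM in miR-8485; log2 fold change 1.07 ± 0.10 (SE), adjusted p = 8.08e-05), followed by TMEM186 (log2 fold change 0.83, adjusted p = 8.81e-04), and DMAC2 fell (log2 fold change -0.25, adjusted p = 0.00201). For complex II, 3 of 4 rose, among them SDHAF3 (log2 fold change 0.80, adjusted p = 3.96e-05) and SDHAF4 (log2 fold change 0.64, adjusted p = 0.00269), which help to mature the catalytic subunits whose own transcripts did not pass. For complex III, 3 of 6 rose and 1 fell: BCS1L, which inserts the Rieske protein, rose (log2 fold change 0.42, adjusted p = 0.00686), as did UQCC2 (log2 fold change 0.32, adjusted p = 0.00919), and LYRM7, which stabilises the same Rieske protein, fell (log2 fold change -0.89, adjusted p = 0.00118).

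For complex IV, 10 of 19 tested assembly factors rose (52.6%) and 4 fell (21.1%), beside 29.1% and 30.5% of all tested genes. COX15, an enzyme of heme A synthesis, measured 11.8, 11.2 and 11.7 FPKM in CTR and 22.1, 24.1 and 22.3 FPKM in miR-8485, a rise with the groups far apart (log2 fold change 0.98 ± 0.052 (SE), adjusted p = 9.25e-06), and COA3, which acts on the synthesis of the mtDNA-encoded core, also rose (log2 fold change 0.75, adjusted p = 0.00114). COX10, which makes the substrate of COX15, fell (log2 fold change -0.41, adjusted p = 0.0054). COA7, a factor of the intermembrane space, fell (log2 fold change -0.77, adjusted p = 4.14e-05), as did COX17, the copper chaperone (log2 fold change -0.44, adjusted p = 0.0484). The COX17 call was lost without CTR replicate 1 or 3 or miR-8485 replicate 2 or 3 (adjusted p of 0.0766 to 0.143) and under median-of-ratios scaling (adjusted p = 0.0524). For complex V, ATPAF2 and ATPAF1, chaperones of the alpha and beta subunits, rose (log2 fold change 0.48, adjusted p = 0.00321; log2 fold change 0.44, adjusted p = 0.00187), and TMEM70, which promotes assembly of the rotor ring, fell (log2 fold change -0.32, adjusted p = 0.00317).

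**Figure D4:**
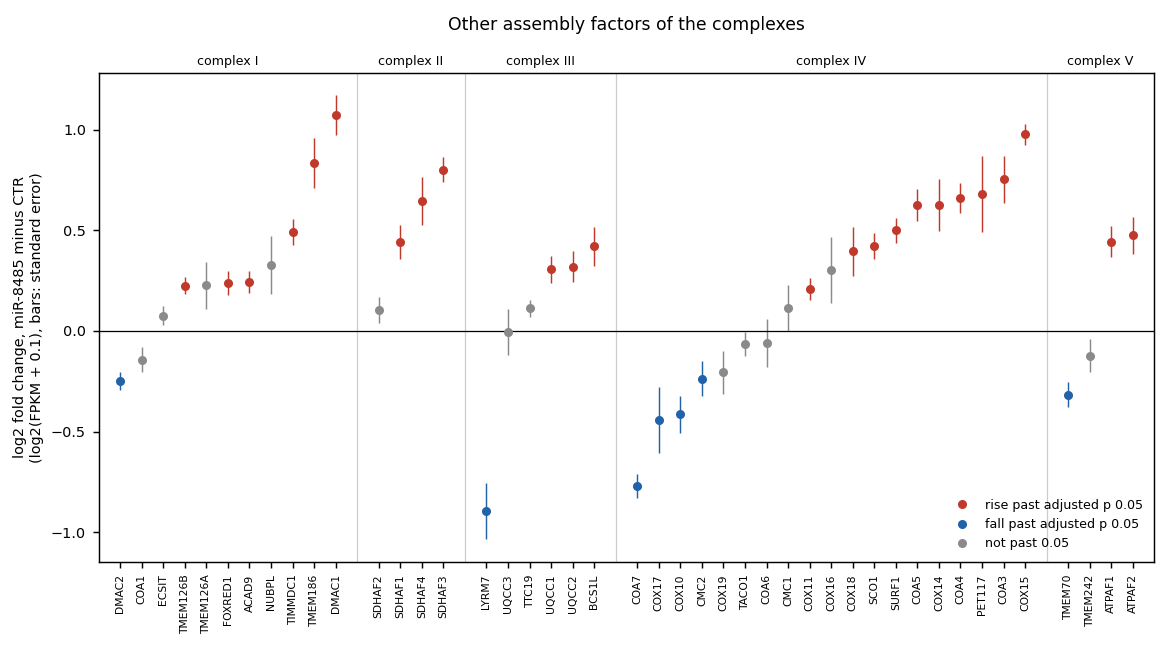
Log2 fold change of the 44 tested assembly factors that the symbol rule leaves out (vertical axis, miR-8485 minus CTR, with the standard error as bars), by complex. Red points rose (24 genes) and blue points fell (7 genes) at an adjusted p under 0.05 by limma, and the range, -0.89 to 1.07, is wider than that of the members.

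Of 7 carriers and side entries of the chain, 1 rose (14.3%) and 2 fell (28.6%), shares at or below the 29.1% and 30.5% of all tested genes. CYCS, cytochrome c itself, measured 67.4, 61.8 and 59.1 FPKM in CTR and 60.4, 60.6 and 57.4 FPKM in miR-8485 and did not pass (log2 fold change -0.076 ± 0.057 (SE), adjusted p = 0.282). GPD2, which feeds electrons from cytosolic glycerol-3-phosphate to ubiquinone, measured 12.2, 12.2 and 11.5 FPKM in CTR and 4.37, 4.41 and 4.40 FPKM in miR-8485, and all miR-8485 libraries were far below CTR (log2 fold change -1.43 ± 0.051 (SE), adjusted p = 2.24e-06). SQOR, which feeds them from sulphide, fell (log2 fold change -0.39, adjusted p = 0.0371), a call lost without CTR replicate 1 or 3 or miR-8485 replicate 1 or 2 (adjusted p of 0.0902 to 0.113). ETFB, a subunit of the carrier from fatty acid oxidation, rose (log2 fold change 0.71, adjusted p = 0.00144), while its partner ETFA and the oxidoreductase ETFDH did not pass.

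The subunits encoded by mitochondrial DNA had a median log2 fold change of 0.23, beside 0.26 for the nuclear members, with larger errors. Taken against each gene's CTR mean, their median log2 deviations were -0.33, 0.22 and 0.10 in CTR and 0.31, 0.26 and 0.17 in miR-8485. CTR replicate 1 was far below all other libraries, so the 0.23 rests in large part on it, and CTR replicate 2 lay above miR-8485 replicate 3. Of these 13 genes 4 rose, MT-CO2 (log2 fold change 0.29, adjusted p = 0.0169), MT-CO3 (log2 fold change 0.29, adjusted p = 0.0169), MT-ND6 (log2 fold change 0.43, adjusted p = 0.00787) and MT-ND1 (log2 fold change 0.36, adjusted p = 0.0406), and none fell at an adjusted p under 0.05 by limma. The share that rose, 30.8%, was near the 29.1% of all tested genes. The MT-ND1 call was lost without CTR replicate 3 or any single miR-8485 library (adjusted p of 0.0576 to 0.123) and after rescaling to TPM (adjusted p = 0.0844), and those for MT-ND1 and MT-ND6 with the length trend removed (adjusted p = 0.479 and 0.217). Nuclear subunits summed to 4322, 3814 and 3901 FPKM in CTR and 4844, 4593 and 4506 FPKM in miR-8485. Per unit of mtDNA-encoded subunit FPKM this was 0.060, 0.040 and 0.044 in CTR and 0.046, 0.045 and 0.047 in miR-8485, where CTR replicate 1 lay above all other libraries and the rest of CTR below miR-8485. The nuclear genes of the mitochondrial ribosome, which makes the mtDNA-encoded subunits, numbered 78, of which 77 were tested, 33 rose (42.9%) and 11 fell (14.3%), with a median of 0.14.

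Of 11 tested regulators of respiratory chain genes, 5 rose (45.5%) and 3 fell (27.3%), beside 29.1% and 30.5% of all tested genes. ESRRA, the estrogen-related receptor that activates many of these genes, measured 28.2, 26.1 and 26.5 FPKM in CTR and 47.8, 40.1 and 44.2 FPKM in miR-8485 and rose (log2 fold change 0.70 ± 0.069 (SE), adjusted p = 1.16e-04). TFB2M, which opens mitochondrial promoters, rose (log2 fold change 0.61, adjusted p = 2.86e-05). TFAM, which packs and transcribes mitochondrial DNA, measured 13.2, 13.7 and 13.2 FPKM in CTR and 7.55, 7.78 and 8.29 FPKM in miR-8485 and fell, with the groups far apart (log2 fold change -0.76 ± 0.053 (SE), adjusted p = 2.56e-05). NRF1 and GABPB1, a factor and a factor subunit whose motifs were searched above, also fell (log2 fold change -0.46, adjusted p = 0.0141; log2 fold change -0.61, adjusted p = 6.23e-04), and YY1 did not pass (log2 fold change 0.018, adjusted p = 0.76). PPARGC1A, the coactivator that drives mitochondrial biogenesis in muscle and brown fat, held 0, 0 and 0 fragments in CTR and 1, 0 and 2 in miR-8485, below the filter.

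Fold changes varied with gene length over the whole table. Split into length quintiles from short to long, all tested genes had median log2 fold changes of 0.20, 0.056, -0.030, -0.061 and -0.12. The members are short, with a median length of 2462 bases beside 4523 for all tested genes, and 63 of the 87 lie in the first and second quintile. Within the shortest quintile 23 of 36 members rose and 0 fell at an adjusted p under 0.05 by limma, beside 35.7% of all genes that rose there. In the second quintile 12 of 27 members rose and 3 fell, beside 34.7% up. In quintiles 3, 4 and 5, from middle to longest, 7 of 9, 4 of 7 and 4 of 8 members rose, beside 28.9%, 26.6% and 19.6% up. Members had a higher median than all genes of like length in every quintile, 0.29, 0.19, 0.48, 0.20 and 0.16.

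**Figure D5:**
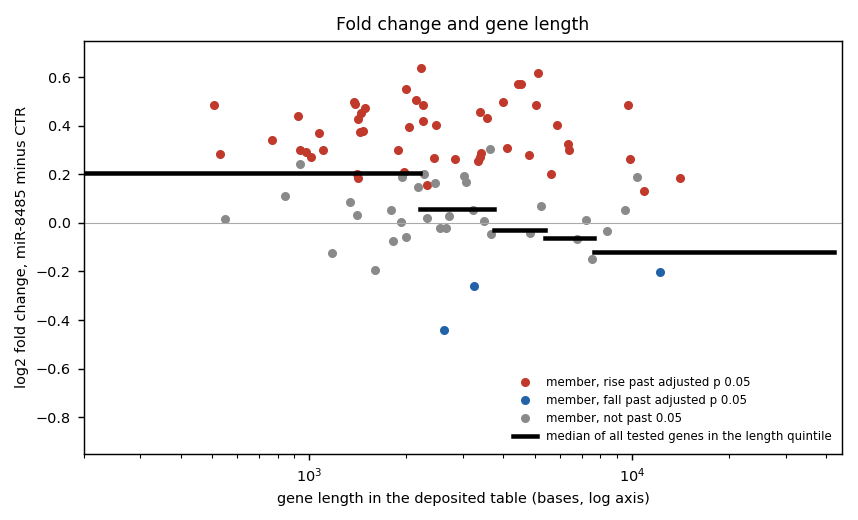
Log2 fold change of 86 tested members (points, coloured by call) against gene length in bases (horizontal log axis), with the median of all tested genes in each length quintile as black bars. The bars descend from 0.20 to -0.12, and most members are short and lie above the bar of their quintile.

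The letters TGTGTGT, the reverse complement of the seed of miR-8485 shown above, were counted in the 3′ UTR of the canonical transcript of each gene. They occurred in 11 of 86 tested members with a 3′ UTR, 12.8%, beside 28.9% of 10665 tested protein-coding genes. Members have short 3′ UTRs, with a median of 198 bases beside 1287 bases. Members with copies lay in both directions. NDUFS1 had 6 overlapping copies and fell, whereas UQCRC1 and ATP5MC1 fell and had 0. NDUFA5, an accessory subunit of complex I, had 19 and rose (6.56, 6.17 and 5.78 FPKM in CTR and 7.28, 7.32 and 7.66 FPKM in miR-8485; log2 fold change 0.26 ± 0.063 (SE), adjusted p = 0.0082), and UQCRB had 5 and rose. The repeat of NDUFA5 is shown because no member had more copies, as 30 bases with the first seed match in capitals (GENCODE release 44, GRCh38, strand of the gene).
NDUFA5, chr7:123540906-123540935, minus strand: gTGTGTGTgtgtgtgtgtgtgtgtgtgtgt

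The run of alternating T and G from which these bases come is 45 bases long, in a 3′ UTR of 5122 bases. Whether the cells express this form of the 3′ UTR, and whether these repeats have a part in any change, was not tested. A limit of the table is that some members share sequence or position with other rows. Of the 87 tested, 53 overlap another listed row. Among the 34 without an overlap 17 rose and 1 fell, beside 29.1% and 30.5% of all tested genes. Pseudogene rows existed for 47 members, 67 of these 164 rows were above 0, and they held over 5% of the fragments for 3 members, NDUFV2, SDHA and COX6A1.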

How the data were processed

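Gene expression was measured by RNA-seq in 3 CTR and 3 miR-8485 libraries of HCT116 cells, the latter with mimics at 50 nM. The authors cleaned the paired-end reads, aligned them to hg38 (HISAT2 version 2.0.5), obtained gene counts (featureCounts version 1.5.0-p3) and deposited FPKM values per gene. Whether counting used strand or multi-mapped reads was not given in the sources used here. In every library 100% of the values above 0 were whole multiples of 1 fragment within a tolerance. This tolerance was 0.05 fragments at low counts and grew with the count, so the highest counts passed in any case. Fragments were recovered by rounding to whole numbers. Intervals were not given, and the standard errors rest on the variation between the libraries of a group.

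Groups followed the sample labels, and 0 value columns lacked a sample. Genes were tested with limma 3.58.1 in R 4.3.3, two-sided, with a variance trend, on log2(FPKM + 0.1) at a mean FPKM of at least 1, with Benjamini-Hochberg adjustment. Counts of genes used Python 3.11.15 with pandas 2.3.3, and figures matplotlib 3.10.9. In libraries simulated for miR-8485 against CTR (12428 genes), limma recovered 72.9% of 107 genes planted at a log2 fold change of 0.5. It recovered 97.8% of 93 planted at 1, with 6 false calls. The simulation changed only these genes, used the same dispersion for all genes and held no length trend. In the data 29.1% of tested genes rose and 30.5% fell, and the median log2 fold change of the members was 0.26. The simulated rates therefore do not describe the calls made here. Members and lists were chosen with earlier results of these data known. Genes named were the 3 largest rises and falls of each group past the threshold with libraries apart, members of a preset list of catalytic subunits, isoforms and c-subunits, members below the filter, and 2 of each direction per other list. NDUFS5, NDUFB8, NDUFA5, NDUFA9, NDUFA13, NDUFAF3, UQCRC2, COX10, CYCS, MT-CO2, MT-CO3, NRF1, YY1, PPARGC1A, IDH3B, VDAC1 and genes listed in counts were named after their values were seen. Some genes that the rule names are not reported here, though counts and medians include them. GC content was known for 12298 tested genes. Promoters came from RefSeq, and 3′ UTRs from GENCODE release 44 on GRCh38, the build of the files. The settings varied were the pseudocount (1 or 0.01), the filter (none, or a mean of 5 FPKM), median-of-ratios, quantile, TPM and, chosen after seeing the data, non-mitochondrial scaling, removal of the length or GC trend, no variance trend, voom on recovered fragments, a replicate block and leaving out each library.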

Additional observations from a re-analysis of the deposited data

How the results depend on the processing

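Under 19 alternatives, the members kept more rises than falls, with 28 to 57 up and 4 to 8 down. Rescaling to TPM gave 28 rises among the members, 0 in complex II, 2 in complex III, 3 in complex IV, 6 in complex V and 2 in the NDUFAF series, and a median log2 fold change of 0.142. With the length trend removed, 8 members fell, 2 genes of complex III rose and the median was 0.137. Without a filter, 3 genes of complex III and 2 of the NDUFAF series rose. At a mean of at least 5 FPKM, where fewer genes were tested (6878), 2303 of all genes rose and 2417 fell. The cause of the other shifts was not tested. When each library was left out in turn, 38 to 57 members rose and 4 to 5 fell, with 16 to 20 rises in complex I, 1 to 3 in complex II, 3 to 6 in complex III, 4 to 8 in complex IV, 8 to 13 in complex V and 3 to 4 in the NDUFAF series. The median was then 0.205 to 0.302, beside an SD of 0.105 between the CTR libraries, and 3102 to 3579 of all genes rose and 3348 to 3640 fell. Voom on recovered fragments gave 56 rises and 5 falls among the members, and leaving out the readthrough rows 50 rises.

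Signs turned for small effects. With the length trend removed, log2 fold changes were 0.0673 for SDHA, -0.0179 for UQCRFS1, -0.173 for COX5A, -0.125 for COX6A1, -0.139 for COX7A2 and 0.00304 for ATP5MC3. After rescaling to TPM they were -0.109 for UQCRFS1, -0.0828 for COX5A, -0.0282 for COX6A1 and -0.111 for COX7A2. Quantile normalization gave -0.0362 for COX5A and -0.0359 for ATP5F1B, and removal of the GC trend 0.0729 for ATP5MC3. Leaving out a library gave -0.0653 to 0.0027 for SDHA, -0.0357 to 0.0502 for UQCRFS1, -0.0235 to 0.0771 for COX5A and -0.0669 to 0.119 for COX7A2. Over the 77 named genes that were tested, 1336 of 1455 values kept their direction and call, 80 lost the call, 19 gained it and 20 turned sign.

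Whether same-numbered libraries were paired is not known from the labels. Their deviations correlated at 0.067, 0.034 and -0.064, and not every library correlated best with its own number. With 3 libraries a group, these values cannot decide whether there was a pairing. Blocking on the replicate number gave 53 rises and 6 falls among the members and 3634 and 3754 among all genes. Depth limits the 13 members below the filter, with at most 151 fragments a library.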

Other observations

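Of 13 tested TCA cycle genes, 4 rose (30.8%) and 3 fell (23.1%), beside 29.1% and 30.5% of all tested genes, with a median log2 fold change of 0.026. Subunits of the NAD-dependent isocitrate dehydrogenase differed in direction: IDH3G rose (log2 fold change 0.68, adjusted p = 2.85e-05 by limma), IDH3A fell (log2 fold change -0.26, adjusted p = 0.0118) and IDH3B did not pass (log2 fold change -0.12, adjusted p = 0.0694). DLST, a subunit of the 2-oxoglutarate dehydrogenase complex, fell (log2 fold change -0.37, adjusted p = 2.13e-04).

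Of 14 genes of mitochondrial import, chaperones and outer membrane channels, 6 rose (42.9%) and 3 fell (21.4%). Among all tested genes 29.1% rose and 30.5% fell. The median log2 fold change of the list was 0.075. The import receptors TOMM20 (93.3, 87.8 and 86.7 FPKM in CTR and 138, 140.3 and 138 FPKM in miR-8485; log2 fold change 0.64 ± 0.043 (SE), adjusted p = 2.07e-05 by limma) and TOMM22 (log2 fold change 0.53, adjusted p = 2.20e-04) rose. The channels VDAC3 (log2 fold change -0.31, adjusted p = 5.07e-04) and VDAC2 (log2 fold change -0.30, adjusted p = 4.75e-04) fell, and VDAC1, the most abundant of the 3, did not pass (log2 fold change 0.0021, adjusted p = 0.979).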
